A study of Mus musculus with 27 samples.

Results

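Cajal-Retzius cells of the mouse hippocampus were picked out of a single-nucleus RNA-seq data set by their reelin expression. A nucleus was counted when it held at least 3 UMIs of Reln (a UMI is 1 captured RNA molecule), either at least 1 UMI of Trp73 or at least 2 of Lhx1, Lhx5 and Ndnf, at most 1 UMI of Gad1 and Gad2 together, and at most 1 UMI of Mog and Mag together. Of 241266 nuclei with 200 to 8000 detected genes and at most 5% mitochondrial UMIs, 743 (0.308%) met this rule. Trp73 admitted 732 of them, and 11 entered by Lhx1, Lhx5 and Ndnf alone. Because these genes chose the nuclei, their levels in them are given as a description without a test.

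Cajal-Retzius cells are early-born neurons of the marginal zone that secrete reelin, a large extracellular glycoprotein that guides the layering of cortex and hippocampus. Reelin binds the receptors VLDLR and LRP8 (ApoER2) on neighbouring neurons and acts through the adaptor DAB1. Most Cajal-Retzius cells of the neocortex die after birth, whereas a population persists along the hippocampal fissure and in the outer molecular layer of the dentate gyrus, where it releases glutamate. The transcription factor p73, encoded by Trp73, is needed for their survival.

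The study asked how loss of cGAS, a sensor of cytosolic DNA that signals through STING to type I interferon, changed hippocampal cells in a mouse model of tauopathy. Each of 27 libraries came from the hippocampi of 1 adult mouse, so the replicate here is the mouse. Tau mice had been crossed with Cgas-/- mice and littermates compared. P301S mice carried human tau with the P301S mutation under the mouse prion protein promoter, which is not specific to Cajal-Retzius cells, and the Cgas null allele was present in all cells of the animal. Of the 9 tau-free mice, 5 had both Cgas copies (Cgas+/+; 2 of these were female), while 1 pair of males lacked one copy (Cgas+/-) and another pair lacked both (Cgas-/-). The P301S mice numbered 6 for each of the same 3 Cgas genotypes, with equal numbers of the sexes.

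Before the results, the labels were compared with the counts. Cgas itself, listed as Mb21d1, had 3 UMIs over all Cajal-Retzius nuclei, which lay in 1 mouse each of the 3 P301S groups. In all other nuclei its level ranged over mice from 1.21 to 1.70 CPM (the UMIs of a gene scaled to the same total in every mouse) in Cgas+/+, from 1.33 to 2.01 in Cgas+/- and from 1.55 to 2.23 in Cgas-/-. The ranges in P301S mice were 1.41 to 3.22 with Cgas+/+, 1.35 to 2.35 with Cgas+/- and 1.24 to 2.24 with Cgas-/-. The counted tags therefore did not follow the labelled Cgas copies, and since the deleted exons are not given in the sources used here, this 3′ count checks nothing. Gm43049 was chosen because earlier results of these data had shown it to follow the P301S label, so its values describe the libraries and are no independent check of the labels. It had 0 UMIs in the Cajal-Retzius nuclei of all 9 tau-free mice and 19 in those of P301S mice. In all other nuclei it lay between 0 and 0.0858 CPM in tau-free mice and between 3.13 and 18.2 CPM in P301S mice.

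Libraries held 4.61e+07 to 7.95e+07 UMIs and 7217 to 14758 nuclei within the limits, and their median UMIs per nucleus ranged from 2233 to 9041. Cajal-Retzius nuclei were shallow. Their median was 2753 UMIs (interquartile range 2147.5 to 3799.5) and 1460 genes, against 10200 UMIs in Reln-expressing inhibitory nuclei, 13279.5 in excitatory nuclei and 2162 in oligodendrocyte nuclei. These comparison nuclei were set by counts as well: Reln inhibitory nuclei (4965) had at least 3 UMIs of Gad1 and Gad2 together and at least 3 of Reln, and excitatory nuclei (22862) at least 3 of Slc17a7. Oligodendrocyte nuclei (34093) had at least 3 UMIs of Mog and Mag together and at most 1 of Slc17a7. All libraries shared some barcodes, 8 to 48 per pair, and 51 Cajal-Retzius barcodes (6.86%) also occurred in another library, against 6.12% of all barcodes, but none belonged to a Cajal-Retzius nucleus there. Scrublet scored 53 Cajal-Retzius nuclei (7.13%) as likely doublets, against 7.39% of all nuclei. Of these 53, 15 lay in Cgas+/- replicate 1, where they were 15 of 19 Cajal-Retzius nuclei, and without them its share given below fell from 0.226% to 0.0510%.

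The genes used to choose the nuclei were high in them by construction. Pooled over all 743 nuclei, Reln reached 8705 CPM, against 1586 CPM in Reln inhibitory nuclei and 94.2 CPM in all other nuclei. Trp73 reached 925 CPM (3.71 CPM in all other nuclei). Ndnf, a secreted neuron-derived factor, reached 1048 CPM (6.33 CPM elsewhere) and was detected in 82.8% of the nuclei. The LIM homeobox genes Lhx1 and Lhx5 were seen in fewer nuclei than Trp73 or Ndnf, in 19.2% and 19.5% of the nuclei, at 60.6 and 56.0 CPM against 0.101 and 0.0854 CPM elsewhere.

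Of 14 Cajal-Retzius genes that the rule did not use, all had UMIs and 4 were detected in at least 20% of the nuclei. Ebf3, a helix-loop-helix transcription factor, was found in 69.6% at 487 CPM, against 0.944 CPM in Reln inhibitory nuclei and 3.98 CPM in all other nuclei. Cacna2d2, a calcium channel subunit, was found in 77.7% at 528 CPM (26.7 CPM elsewhere). Slc17a6, the vesicular glutamate transporter VGLUT2, was found in 31.9% at 111 CPM (10.3 CPM elsewhere) and in 0.974% of oligodendrocyte nuclei, which should lack it and were of similar depth. Nr2f2 was found in 34.1%. Nhlh2 (15.5%), Cxcl12 (12.7%), Calb2 (5.11%) and Cxcr4 (4.04%) were detected in fewer nuclei, each at a pooled level above that of all other nuclei.

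**Figure D1:**
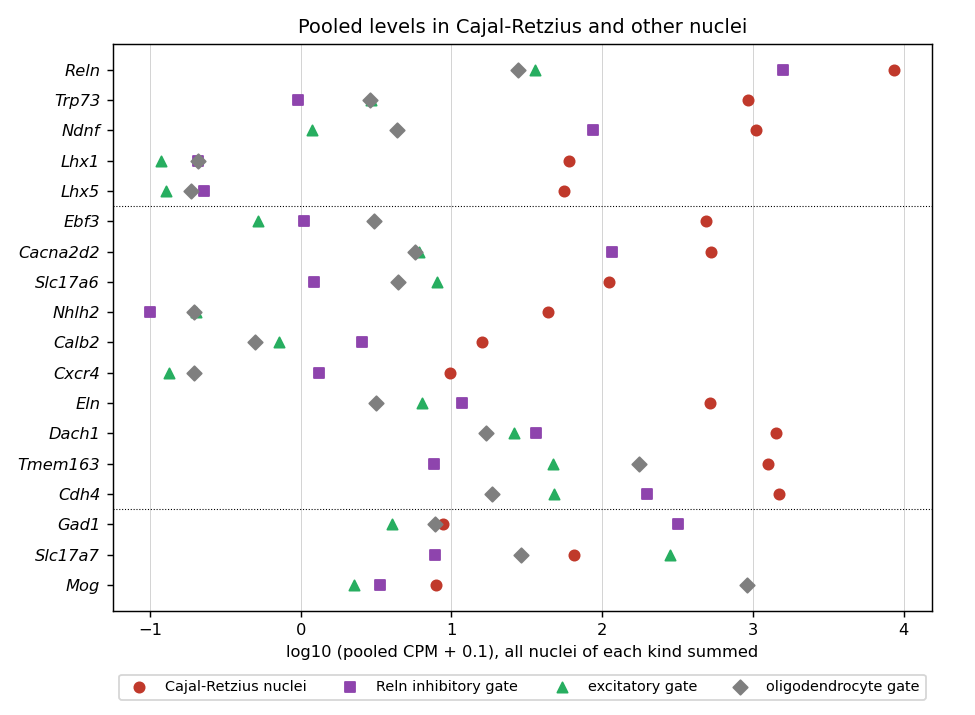
Pooled level of 18 genes, plotted as log10 of CPM plus 0.1, in Cajal-Retzius nuclei and in Reln inhibitory, excitatory and oligodendrocyte nuclei, each kind summed over all 27 mice. Trp73 and Ebf3 lie at 925 and 487 CPM in Cajal-Retzius nuclei and under 3 CPM in the other 3 kinds, while Gad1, Slc17a7 and Mog are highest in the kinds that they define.

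Markers of other cell types were present at varied levels. The rule capped Gad1, Gad2, Mog and Mag, and the comparison nuclei were chosen by high counts of these genes or of Slc17a7. Contrasts with those nuclei for these genes, and for sums that hold them, are thus partly fixed by the choice of nuclei. Gad1, which makes GABA, was at 8.74 CPM (316 CPM in Reln inhibitory nuclei), and the inhibitory interneuron genes Lamp5 and Npy had 7 and 1 UMIs. The 10 genes listed for Reln interneurons summed to 159 CPM, against 1217 CPM in Reln inhibitory nuclei. Of these, Kit was higher in Cajal-Retzius nuclei, at 102 against 77.0 CPM (36.9 CPM in all other nuclei). The 3 oligodendrocyte progenitor markers summed to 62.5 against 58.3 CPM elsewhere, with Cspg4 higher (36.9 against 11.7 CPM) and Vcan and Pdgfra lower. Mog, of myelin, was at 7.77 CPM (915 CPM in oligodendrocyte nuclei). Slc17a7, the transporter VGLUT1 of most excitatory hippocampal neurons, was at 65.4 CPM (283 CPM in excitatory nuclei). It was detected in 14.1% of Cajal-Retzius nuclei, against 7.88% of oligodendrocyte nuclei. The latter could hold at most 1 UMI of it by their definition and Cajal-Retzius nuclei had no such limit, so 7.88% is no background rate. Ependymal markers were above other nuclei, summing to 153 CPM over 6 genes against 22.6 CPM, and 4 choroid plexus markers were at 332 against 324 CPM. Camk2a, of excitatory neurons, was found in 28.4% of the nuclei (465 against 955 CPM; 96.2 to 153 CPM by genotype among nuclei of up to 8000 UMIs), and Slc1a2, of astrocytes, in 37.7% (328 against 878 CPM). Cldn5 and Slc6a13, of endothelial cells and meningeal fibroblasts, had no UMI, and 3 counts among 3.09e+06 UMIs would be the limit that such a 0 allows.

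Genes outside the rule that were found in at least 20% of the nuclei were ranked by the ratio of their level to that in all other nuclei, with 5 CPM added to both, and were of several kinds. By this measure Ebf3 came before the others. The extracellular matrix gene Eln (elastin) was at 521 CPM against 8.50 CPM elsewhere, and was detected in 74.3% of the nuclei. Dach1, a transcriptional cofactor, was at 1426 against 41.0 CPM, and Tmem163, a zinc transporter, at 1260 against 54.6 CPM. The cadherin Cdh4 was at 1487 against 70.5 CPM, and the zinc finger factor Casz1 at 134 against 2.84 CPM. Cd274, the immune checkpoint ligand PD-L1, was detected in 29.1% of the nuclei at 101 against 1.80 CPM, and the antisense transcript Lhx1os in 21.0% at 67.0 against 0.179 CPM. Utrn (utrophin), Plekha7, Maml3 and Thsd7b were also among the 25 leading genes.

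The differences were also seen at equal depth. When each of 733 Cajal-Retzius nuclei with at least 1000 UMIs was thinned to 1000 UMIs, Ebf3 was detected in 42.7% of them, Cacna2d2 in 47.1%, Tmem163 in 69.3% and Eln in 45.6%. The same thinning left Ebf3 in 0.0604%, Cacna2d2 in 10.1%, Tmem163 in 0.604% and Eln in 1.47% of Reln inhibitory nuclei. At this depth Slc17a6 was still detected in 12.8% of Cajal-Retzius nuclei. Tmem163 was less rare in other kinds of nuclei. Without thinning it was found in 89.9% of Cajal-Retzius, 19.7% of oligodendrocyte and 15.5% of excitatory nuclei. Of the excitatory nuclei with at least 3 Reln UMIs, 45.8% had it. Rbfox3, which encodes the neuronal marker NeuN, was not thinned: 14.9% of the Cajal-Retzius nuclei had at least 2 UMIs of it, against 85.5% of the deeper Reln inhibitory nuclei, 99.0% of the deeper excitatory nuclei and 4.07% of oligodendrocyte nuclei of similar depth.

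Not every nucleus that met the rule carried this programme. Ebf3, Ndnf, Cacna2d2, Dach1 and Tmem163 were counted together in each nucleus; Ndnf is a gene of the rule and the other 4 are not. Dach1 and Tmem163 are known here only as leading genes of these same nuclei. A high count of the 5 genes among most of the nuclei is thus partly fixed by their choice. Of 664 nuclei with at least 10 Reln UMIs, 97.0% had at least 3 of these 5 genes and 3 nuclei had none. Of the 79 nuclei with 3 to 9 Reln UMIs (10.6% of all), 19.0% had at least 3 of the 5 and 22 had none. Their median depths were 2760 and 2642 UMIs, but 17 of the 84 nuclei with over 8000 UMIs were among those 79. Of the 4 genes outside the rule, Ebf3 was found in 75.8% and 17.7% of the 2 sets, Cacna2d2 in 84.5% and 20.3%, Dach1 in 95.9% and 31.6% and Tmem163 in 94.1% and 54.4%. All 16 nuclei with at least 3 UMIs of the ependymal genes Foxj1, Tmem212, Ccdc153 and Spag17, which serve motile cilia, fell among those under 10 Reln UMIs.

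Values beside the Reln threshold are given for Ndnf, itself of the rule, and for Slc17a6, which is not. Just outside it, 275 nuclei met the other conditions with 1 or 2 Reln UMIs, and 1.45% of them had Ndnf and 3.64% Slc17a6. Just inside, Ndnf was found in 8.70% and Slc17a6 in 4.35% of 46 nuclei with 3 to 5 Reln UMIs. Above that they were found in 87.7% and 33.7% of 697 nuclei. The nuclei with few Reln UMIs were unevenly spread over mice. P301S Cgas+/- replicate 1 contributed 5 nuclei, with a median of 9578 UMIs, of which 1 had at least 10 Reln UMIs, 0 had Ebf3 and 0 had at least 3 of the 5 genes. The name Cajal-Retzius therefore does not describe the nuclei of that library, and without it the share difference between P301S Cgas+/- and P301S Cgas+/+ given below was -0.0612 percentage points in place of -0.0974, and 0 genes were called either way.

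**Figure D2:**
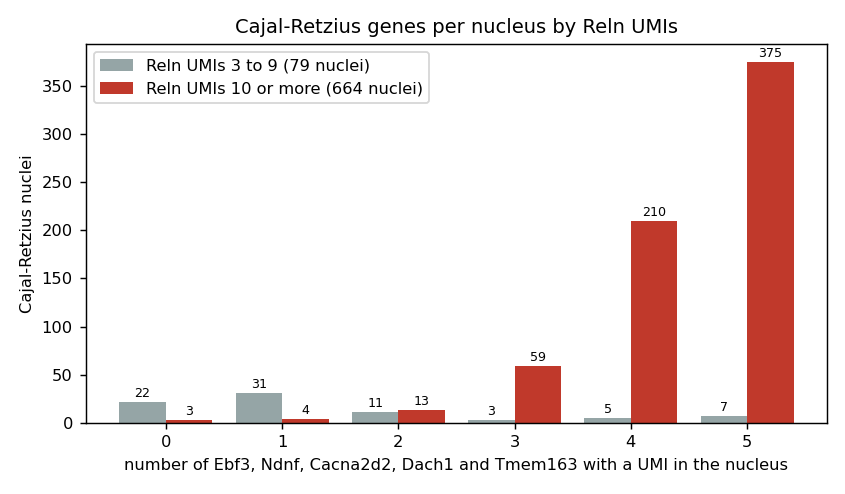
Number of Cajal-Retzius nuclei (vertical axis) by how many of Ebf3, Ndnf, Cacna2d2, Dach1 and Tmem163 had a UMI in the nucleus (horizontal axis), for nuclei with 3 to 9 and with at least 10 Reln UMIs. The 664 nuclei with at least 10 Reln UMIs pile up at 4 and 5 genes (210 and 375 nuclei), and the 79 others at 0 and 1 (22 and 31 nuclei).

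A second exception concerned deep nuclei. The 84 Cajal-Retzius nuclei with over 8000 UMIs (11.3%) held 39.1% of all UMIs. Their median was 12681.5 UMIs, against 2604 UMIs in the 659 others, and the shares that follow were not taken at equal depth. Of the deep nuclei, 90.5% had at least 2 UMIs of Rbfox3 and 28.6% at least 3 of Slc17a7, against 5.31% and 0.152% of the others. The share with at least 3 of the 5 genes above was 69.0%, against 91.2%, and Scrublet scored 17.9% as likely doublets, against 5.77%. The deep nuclei made up 11.9% of Cajal-Retzius nuclei in P301S Cgas+/+ and 5.76% in P301S Cgas-/-. Gene levels summed per mouse below contain them unless stated.

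Single ion channel and guidance genes differed from other nuclei in both directions, while the 27 adhesion and guidance genes together were at 19084 CPM against 17957 CPM and the 24 voltage-gated channel genes at 19579 against 13553 CPM. In Reln inhibitory nuclei these sums were 23627 and 13502 CPM. Kcnh7 and Kcnb2, voltage-gated potassium channels, were at 4237 and 3850 CPM, against 1023 and 891 CPM in all other nuclei. Both were detected in 89.8% of nuclei thinned to 1000 UMIs, against 46.1% and 45.3% of Reln inhibitory nuclei. Kcnd2, another potassium channel, was lower than in all other nuclei (1424 against 2620 CPM), with 1545 CPM in Reln inhibitory nuclei. Robo2, a receptor for Slit guidance cues, was at 3542 against 606 CPM, and the growth factor gene Nrg1 at 3870 against 1612 CPM. Tenm2, an adhesion molecule, was lower (2879 against 5532 CPM).

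The 25 ionotropic receptor genes together were at 10752 CPM against 16187 CPM in all other nuclei. The AMPA receptor subunits Gria1 and Gria2 were at 2147 and 1156 CPM, against 2548 and 1260 CPM in all other nuclei, whereas Gria4 was at 945 against 673 CPM. In Reln inhibitory nuclei Gria1, Gria2 and Gria4 were at 4372, 778 and 1669 CPM. The NMDA receptor subunit Grin2a was at 1333 against 2686 CPM, and the metabotropic receptors Grm5 and Grm7 at 1035 and 1090 against 1990 and 1981 CPM. Of the Grin2a UMIs of each genotype, 36.1% to 85.5% lay in 5 nuclei.

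All 24 genes listed for reelin signalling had UMIs, 10 of them in at least 20% of the nuclei. The adaptor Dab1 was at 1497 CPM against 2895 CPM in all other nuclei, and after thinning it was detected in 33.8% of Cajal-Retzius nuclei, 69.0% of Reln inhibitory nuclei and 87.9% of excitatory nuclei. The receptor gene Lrp8 was at 95.2 CPM (64.3 CPM elsewhere) and Vldlr at 14.6 CPM (33.4 CPM elsewhere). The cadherin Cdh2 was at 340 CPM, against 321 CPM elsewhere.

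Genes of apoptosis, interferon and tau were detected to different extents. The p53 family and apoptosis list summed to 593 CPM against 467 CPM elsewhere. Of it, Sesn1 (242 against 130 CPM) and Mdm2 (80.3 against 44.7 CPM), both induced by p53 family factors, were above other nuclei, while Bcl2l1 (86.8 against 103 CPM), an inhibitor of apoptosis, was below. Of 35 interferon genes, 31 had a UMI and 4 (Ifit3, Ifi44, Ifi204 and Zbp1) had none, and summed over the list their level was 309 CPM against 345 CPM elsewhere. In the cGAS-STING list the kinase gene Tbk1 was at 74.2 CPM, Irf3 at 14.2 CPM and the STING gene (Tmem173) had 1 UMI, so Cgas and the STING gene were each at or under 3 UMIs. Mapt, the endogenous tau gene, was found in 63.0% of the nuclei, at 429 CPM against 624 CPM elsewhere.

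Each mouse yielded 4 to 56 Cajal-Retzius nuclei, and their share did not separate the genotypes. Shares in the 5 Cgas+/+ mice were 0.267%, 0.568%, 0.259%, 0.192% and 0.366% of nuclei. Shares were 0.226% and 0.532% in the Cgas+/- mice and 0.637% and 0.348% in the Cgas-/- mice. The ranges of the tau-free groups overlapped.

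In the 6 mice of each P301S group the lowest, median and highest shares were 0.0468%, 0.349% and 0.568% with Cgas+/+, 0.0515%, 0.262% and 0.340% with Cgas+/-, and 0.119%, 0.225% and 0.646% with Cgas-/-. The ranges of all 3 groups overlapped. The lowest values, in P301S Cgas+/+ replicate 1 (4 of 8549 nuclei) and P301S Cgas+/- replicate 1 (5 of 9707), had 95% exact Clopper-Pearson intervals of 0.0127% to 0.120% and 0.0167% to 0.120%. These intervals cover counting error only.

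The question of tau effects was addressed by P301S Cgas+/+ against Cgas+/+, with mean shares of 0.330% ± 0.173 (SD, n = 6) and 0.330% ± 0.147 (n = 5), which differed by -0.000385 percentage points (exact two-sided permutation test, p = 0.998; 95% interval from inverting the test, -0.224 to 0.211). For loss of cGAS, P301S Cgas-/- had a mean share of 0.271% ± 0.190 (n = 6), a difference of -0.0592 from P301S Cgas+/+ (exact permutation p = 0.578, interval -0.275 to 0.195). P301S Cgas+/- mice had 0.233% ± 0.115 (n = 6), a difference of -0.0974 (exact permutation p = 0.277, interval -0.280 to 0.0888). These intervals span most of the share itself, so such changes were not detectable with these mice.

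All 18 P301S mice had a mean of 0.278% against 0.377% in the 9 tau-free mice, a difference of -0.0995 (exact permutation p = 0.140, interval -0.234 to 0.0349). Adjusted over the 4 comparisons by Benjamini-Hochberg, exact permutation p-values were 0.998, 0.771, 0.554 and 0.554 in the order given. File headers named 2 versions of the processing software, 3.0.2 in 2 males of every group and 3.1.0 in the rest, and within these the last difference was -0.194 and 0.0268. It was -0.116 in males and 0.0256 in females, where tau-free females numbered 2.

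Library depth and share were compared. Over the 27 mice, share and library median UMIs gave Pearson's r of -0.368 (permutation p = 0.0573, adjusted over 4 relations 0.229) and Spearman's rho of -0.433 (permutation p = 0.0248, adjusted 0.0994), with r of -0.323 without the 2 libraries farthest from the median depth. Neither passed the adjustment. Library median UMIs averaged 4192 in P301S Cgas+/+, 6223 in Cgas+/+ and 5968 in P301S Cgas-/-, and their part in the shares was not tested. The other 3 relations, with the shares of excitatory, oligodendrocyte and Reln inhibitory nuclei, gave r of -0.263, 0.0671 and -0.0751 (lowest permutation p 0.184, adjusted 0.368).

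**Figure D3:**
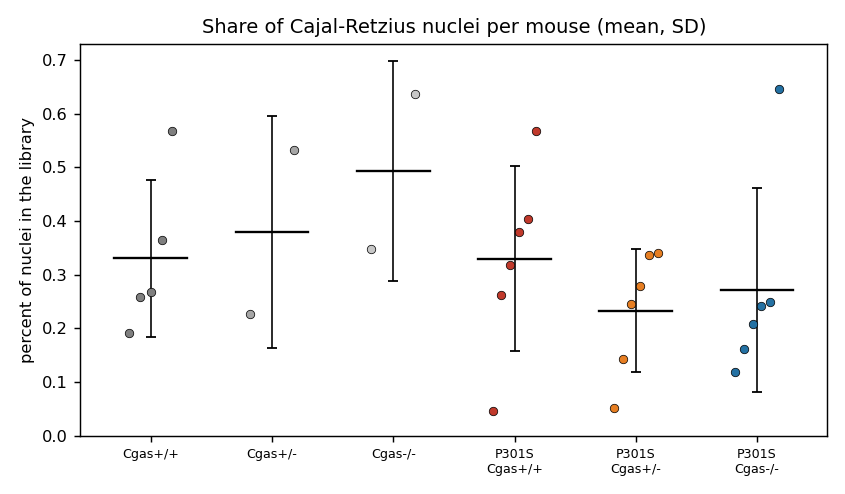
Share of Cajal-Retzius nuclei in percent of the nuclei of each library (vertical axis), by genotype (horizontal axis); each point is 1 mouse, and the bar and whiskers are the mean and SD. Shares run from 0.0468% to 0.646%, and no genotype stands apart from the others.

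Levels of the genes that define the cells overlapped between the 3 P301S groups, and are given as a description. Reln, summed over the Cajal-Retzius nuclei of a mouse, was at 4034, 6058, 7560, 7941 and 11050 CPM in Cgas+/+ mice, 5644 and 7646 CPM in Cgas+/- mice and 10930 and 12358 CPM in Cgas-/- mice. In P301S mice the lowest, median and highest levels were 7500, 8466 and 10386 CPM with Cgas+/+, 958, 7403 and 13192 CPM with Cgas+/-, and 7684, 10714 and 13811 CPM with Cgas-/-. Both Cgas-/- mice lay above both Cgas+/- mice and above every P301S Cgas+/+ mouse. The highest Cgas+/+ mouse (11050 CPM), however, lay above the lower Cgas-/- mouse (10930 CPM). Reln was also used to choose the nuclei, so no effect of Cgas is read from this order. Among nuclei of up to 8000 UMIs the Cgas-/- mice lay at 13774 and 14964 CPM, above the Cgas+/- mice at 10161 and 10567 CPM. The Cgas-/- values were within the P301S Cgas+/+ range of 10462 to 15747 CPM and the Cgas+/+ range of 7828.59 to 16139.5 CPM. The value of 958 CPM belongs to P301S Cgas+/- replicate 1, the library whose nuclei lacked Ebf3.

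Trp73, Ndnf and Ebf3 also overlapped between P301S Cgas+/+ and P301S Cgas-/-. Trp73 lay at 670 to 1064 CPM (median 908) in P301S Cgas+/+ and 870 to 1454 CPM (median 1209) in P301S Cgas-/-. Ndnf lay at 873 to 1334 CPM (median 1096) and 707 to 2131 CPM (median 1232), and Ebf3 at 322 to 590 CPM (median 487) and 428 to 833 CPM (median 690). Among nuclei of up to 8000 UMIs the medians of P301S Cgas+/+ and P301S Cgas-/- were nearer to each other, at 12032 and 13138 CPM for Reln, 1304 and 1520 CPM for Trp73 and 727 and 753 CPM for Ebf3. The medians of P301S Cgas+/- there were 13927 CPM for Reln, the highest of the 3 P301S groups, 1502 CPM for Trp73 and 611 CPM for Ebf3, so the order of the groups changed with the depth of the nuclei.

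**Figure D4:**
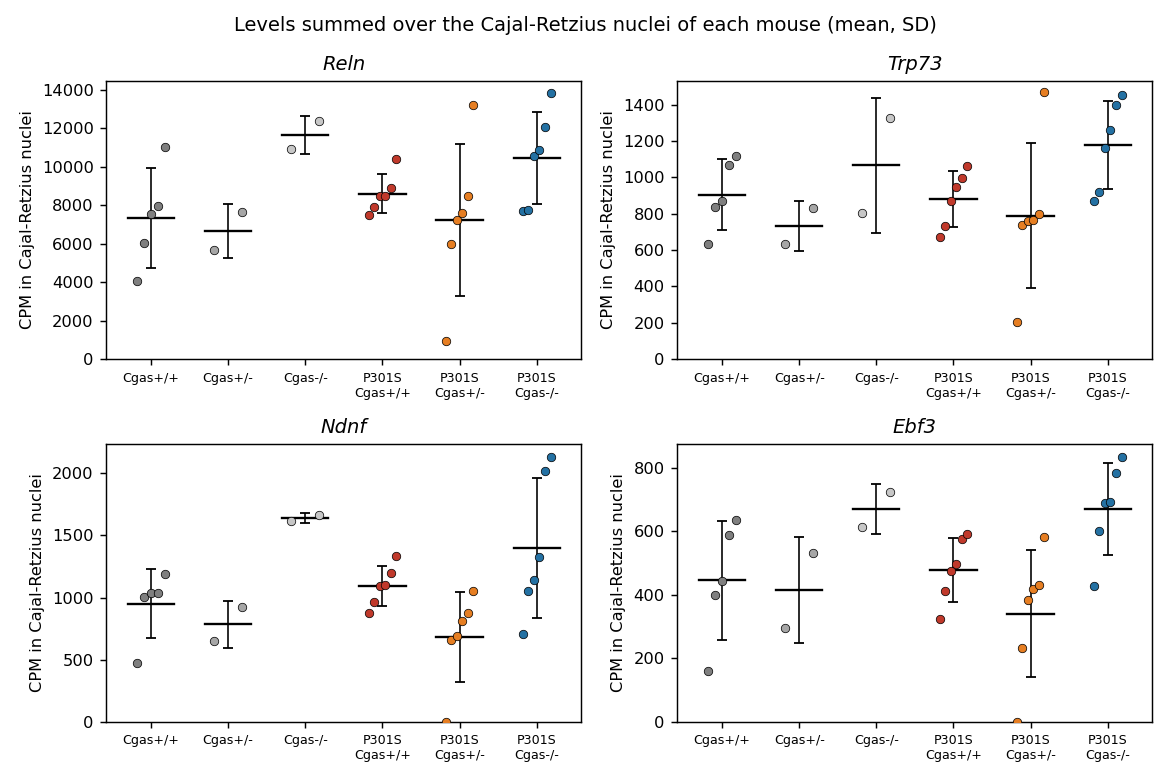
Levels of Reln, Trp73, Ndnf and Ebf3 in CPM (vertical axes), summed over the Cajal-Retzius nuclei of each mouse, by genotype; each point is 1 mouse, and the bar and whiskers are the mean and SD. The 3 P301S groups overlap for all 4 genes, and the lowest Reln value, 958 CPM, is that of P301S Cgas+/- replicate 1.

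Gene expression was then compared between genotypes over mice, with counts of all Cajal-Retzius nuclei of a mouse summed. The edgeR quasi-likelihood test with sex as a covariate was run on 22 mice of 4 groups with at least 5 nuclei, which left out P301S Cgas+/+ replicate 1. P301S Cgas+/+ did not differ from Cgas+/+ in any of 2556 genes at an adjusted p under 0.05 (0 called, 0%), with 68 genes at an unadjusted p under 0.05, and DESeq2 also called 0. The 5 genes of smallest p did not pass. They were Jakmip1, Gsg1l and Rapgef4, at log2 fold changes of -0.87, -1.27 and -0.78, and Sgk1 and Rnpc3, at 1.24 and 0.93 (edgeR, Benjamini-Hochberg adjusted p = 0.999 for each).

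P301S Cgas+/- against P301S Cgas+/+ also gave 0 of 2556 genes (0%), with 131 at an unadjusted p under 0.05 and 0 by DESeq2. The smallest p belonged to 9530059O14Rik, Pdzrn3, Nlk, Zbtb16 and Necab1, with log2 fold changes of 1.0, 2.53, 0.71, 1.03 and 2.46 (edgeR adjusted p = 0.844 for each). In P301S Cgas+/- mice 5 nuclei held 87.2% of the Pdzrn3 and 89.0% of the Necab1 UMIs. Without nuclei with markers of other classes, Pdzrn3 was at 0.40 and 9530059O14Rik at 0.18. All P301S against all tau-free mice, fitted over 26 mice with sex and Cgas genotype as covariates, gave 0 of 2176 genes (0%), with 122 at an unadjusted p under 0.05 and 0 by DESeq2. Jakmip1, Grin2a, Agap1 and Tcf4 were among the genes of smallest p there, at -0.56, -0.75, 0.63 and -0.43 (edgeR adjusted p = 0.679 for each). Over 39 alternatives Grin2a lay between -1.02 and -0.019 and was called in 1. Counts were simulated for the first comparison over 2672 genes, with the same spread for every gene. In them edgeR recovered 31% of genes changed by 2-fold and 100% of those changed by 4-fold, with 6 false calls. Changes of 2-fold would thus often be missed. Genes whose UMIs lie in a few nuclei, such as Pdzrn3 and Necab1, were not modelled, so the 100% does not cover them.

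Loss of cGAS in P301S mice was the only one of the 4 comparisons with called genes. Against P301S Cgas+/+, the P301S Cgas-/- mice had 3 genes lower and 0 higher of 2556 (0.117% called), with 214 genes at an unadjusted p under 0.05, and DESeq2 called 16, all lower (0.626%). The 3 genes were Dgkg, a diacylglycerol kinase, Zfpm2 (FOG2), a cofactor of GATA and COUP-TF transcription factors, and Slit3, a secreted guidance ligand of Robo receptors. None of them was among the Cajal-Retzius genes above, and each was lower in Cajal-Retzius nuclei than in all other nuclei (269, 265 and 812 CPM against 523, 527 and 1473 CPM).

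Dgkg (GRCm38 chromosome 16, 22468461 to 22657221) lay at 47.9 to 553 CPM (median 311) in the 6 P301S Cgas+/+ mice and 17.7 to 120 CPM (median 90.0) in the 6 P301S Cgas-/- mice. The Cgas+/+ mice had 202, 252, 274, 363 and 421 CPM. The P301S groups overlapped only through P301S Cgas+/+ replicate 1, which had 1 UMI and was not in the fit, where the log2 fold change was -1.89 (SE 0.35, edgeR adjusted p = 0.0305). The gene was detected in 25.2% of P301S Cgas+/+ and 10.8% of P301S Cgas-/- Cajal-Retzius nuclei.

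Zfpm2 (chromosome 15, 40655035 to 41104592) lay at 259 to 444 CPM (median 354) in P301S Cgas+/+ and 70.9 to 205 CPM (median 96.2) in P301S Cgas-/-, so the groups did not overlap (log2 fold change -1.64, SE 0.34, edgeR adjusted p = 0.0486). The gene was named for its small p in this comparison, so that separation is partly fixed by the choice. How many of all tested genes separated likewise was not counted. Slit3 (chromosome 11, 35121224 to 35708507) lay at 95.7 to 1491 CPM (median 961) and 124 to 453 CPM (median 331), and again overlapped only through P301S Cgas+/+ replicate 1 (-1.51, SE 0.31, edgeR adjusted p = 0.0486). In P301S Cgas+/+ and P301S Cgas-/-, 77 of 202 and 25 of 139 nuclei had Zfpm2, and 40.6% and 28.1% had Slit3.

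Tmeff2, a transmembrane protein with follistatin-like domains, and Ryr2, an intracellular calcium release channel, had the next smallest p and did not pass. Tmeff2 lay at 402 to 635 CPM in P301S Cgas+/+ and 138 to 298 CPM in P301S Cgas-/-. Its log2 fold change was -1.25 (SE 0.27, edgeR adjusted p = 0.0542). The ranges did not overlap, but Tmeff2 too was named for its small p in this comparison. Ryr2 lay at 0 to 865 CPM and 88.6 to 336 CPM (-1.34, SE 0.31, edgeR adjusted p = 0.0813).

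**Figure D5:**
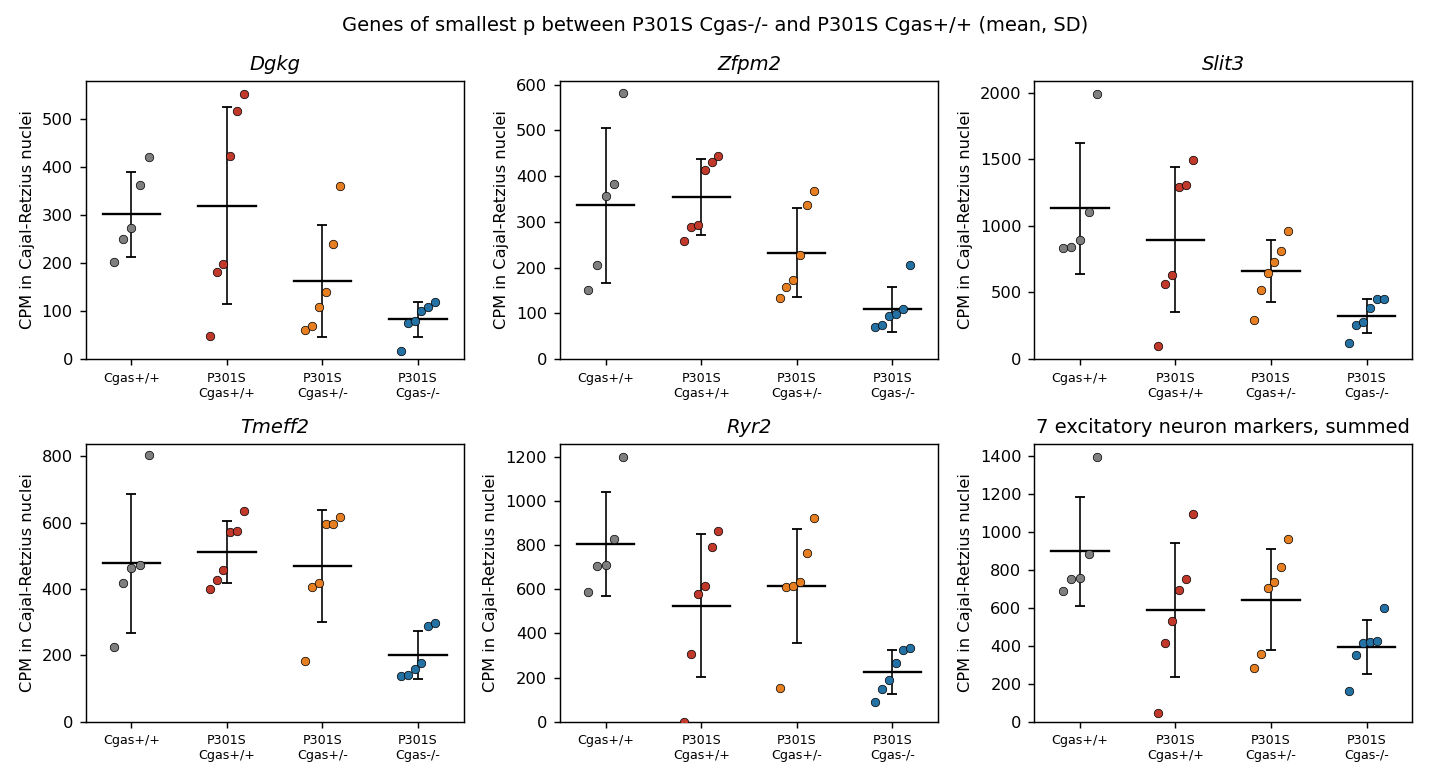
Levels in CPM (vertical axes), summed over the Cajal-Retzius nuclei of each mouse, of Dgkg, Zfpm2, Slit3, Tmeff2 and Ryr2, and the summed level of 7 excitatory neuron markers; each point is 1 mouse, and the bar and whiskers are the mean and SD. P301S Cgas-/- mice sit below P301S Cgas+/+ mice without overlap for Zfpm2 and Tmeff2, and their excitatory marker sums reach 598 CPM against 1095 CPM. The single genes shown were chosen by their small p in this same comparison, so their separation is partly fixed by that choice.

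Most UMIs of the called genes lay in the deep nuclei. The nuclei over 8000 UMIs held 82.8% of the Dgkg, 62.4% of the Zfpm2 and 79.8% of the Slit3 UMIs over all mice, but 8.38% of the Reln, 9.77% of the Trp73 and 8.78% of the Ebf3 UMIs. They held 40.5% of all UMIs in P301S Cgas+/+ and 22.7% in P301S Cgas-/-. The 7 excitatory neuron markers together lay at 47.9 to 1095 CPM (median 615) in P301S Cgas+/+ and 160 to 598 CPM (median 418) in P301S Cgas-/-. Ependymal markers lay at 15.7 to 387 CPM (median 114) and 0 to 74.3 CPM (median 15.6) in the same groups, and microglial markers at 31.3 to 387 CPM (median 114) and 0 to 154 CPM (median 37.5); their part in the result was not tested. Without the deep nuclei, an alternative chosen after seeing the data, edgeR called 0 of 1676 genes (117 at an unadjusted p under 0.05, smallest adjusted p = 0.0530), with Dgkg under the count filter. With at least 10 Reln UMIs per nucleus, also chosen after seeing the data, edgeR called 38 of 2256 genes (1.68%), 34 of them lower (1.51%).

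In nuclei of up to 8000 UMIs, which are part of the sums tested, the pooled levels differed in the same direction. The genes were chosen for their small p in those sums, so the shared direction is partly fixed by that choice. Zfpm2 was at 252 CPM in P301S Cgas+/+ and 71.9 CPM in P301S Cgas-/- (log2 fold change -1.72, edgeR adjusted p = 0.382), and Slit3 at 373 and 171 CPM (-1.0, edgeR adjusted p = 0.709). Dgkg had 38 and 16 UMIs there, or 76.6 and 39.7 CPM. By mouse, however, the 2 groups overlapped in these nuclei for all 3 genes. Zfpm2 lay at 96.9 to 356 and 38.2 to 178 CPM, Slit3 at 159 to 605 and 70.0 to 280 CPM, and Dgkg at 0 to 137 and 0 to 120 CPM. The same genes in excitatory nuclei, which share the mice, had means of 860 and 540 CPM for Dgkg, 2339 and 1715 CPM for Slit3 and 512 and 561 CPM for Zfpm2. In Reln inhibitory nuclei Dgkg was at 671 and 693 CPM, Slit3 at 214 and 180 CPM and Zfpm2 at 487 and 300 CPM.

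The count of 3 hung on the model: it was 1 with software version as a term and 0 without the sex term. With only the 2 groups compared it was 9, and with at least 10 nuclei per mouse it was 8. The count also hung on single mice. It was 0 without P301S Cgas-/- replicate 1, 3 or 4 or without P301S Cgas+/+ replicate 3, 4 or 5, and 1 without P301S Cgas-/- replicate 6 or P301S Cgas+/+ replicate 6. Over the other settings and single-mouse omissions, Dgkg was called in 14 of 24, Zfpm2 in 8 of 25 and Slit3 in 10 of 25, with log2 fold changes of -2.35 to -1.78, -2.0 to -1.41 and -2.02 to -1.0.

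Slit3 was the only gene of any list that was called in any of the 4 comparisons. It was 1 of 23 tested adhesion and guidance genes, beside 3 called of all 2556 genes tested for loss of cGAS (0.117%). The median log2 fold change of the 23 genes with loss of cGAS was 0.05, beside 0.02 over all genes tested. Of 14 Cajal-Retzius genes outside the rule, 4 passed the count filter (Ebf3, Cacna2d2, Slc17a6 and Nr2f2) and 0 were called. Their medians were 0.11 for P301S against Cgas+/+, 0.53 for loss of cGAS and -0.21 for the heterozygous comparison. With loss of cGAS the medians were -0.36 over 15 of 25 ionotropic receptor genes and -0.50 over 6 of 13 glutamate and GABA genes, -0.10 over 18 of 24 voltage-gated channels and 0.06 over 9 of 24 reelin signalling genes, with 0 called in each.

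In P301S against Cgas+/+ the medians were -0.08 for ionotropic receptors, -0.12 for glutamate and GABA genes, -0.02 for channels, -0.15 for reelin signalling and -0.28 for adhesion and guidance, with 0 called in each, beside -0.02 over all genes tested. Dab1 was at -0.57 and -0.78 in the tau and cGAS comparisons (edgeR adjusted p = 0.999 and 0.432), which share the P301S Cgas+/+ mice. MEF2 and other neuronal genes that the study's text names, a list chosen on these samples, had medians of -0.24 and -0.02 in the same comparisons over 21 of 27 genes, with 0 called. Of the interferon list only Adar, an RNA-editing enzyme, had enough counts, at log2 fold changes of 0.07 for tau and 0.21 for loss of cGAS (edgeR adjusted p = 0.999 and 0.924). Summed over all 35 genes, the list lay at 185 to 262 CPM (median 206) in Cgas+/+ mice, at 233 and 273 CPM in Cgas+/- mice and at 191 and 214 CPM in Cgas-/- mice. In P301S mice it lay at 225 to 1867 CPM (median 338) with Cgas+/+, 204 to 388 CPM (median 296) with Cgas+/- and 199 to 465.8 CPM (median 382) with Cgas-/-. The medians of the P301S groups were above those of the tau-free groups, the ranges of P301S Cgas+/+ and Cgas+/+ mice overlapped, and 1867 CPM came from the 4 nuclei of P301S Cgas+/+ replicate 1, with 510 CPM the next highest of that group. The 5 microglial markers together lay at 12.4 to 182 CPM (median 54.7) in Cgas+/+ and 31.3 to 387 CPM (median 114) in P301S Cgas+/+ mice, with medians of 54.8 CPM in P301S Cgas+/- and 37.5 CPM in P301S Cgas-/-, the group with the highest interferon median, and their part in these sums was not tested. No chemokine, cGAS-STING or transgene-linked gene passed the count filter.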

How the data were processed

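Single-nucleus RNA-seq (10x Chromium 3′ v3) was available as 27 deposited matrices of UMI counts per gene and nucleus. The authors made these counts with Cell Ranger (3.1.0 in the submitters' notes, 3.0.2 or 3.1.0 in the file headers) from pre-mRNA reads aligned to mm10; the submitters' notes name Seurat 3.0, the study's methods a later version, with an upper limit of 4000 genes. Limits of 200 to 8000 genes and 5% mitochondrial UMIs left out 42 barcodes for too many genes and 630 for mitochondrial UMIs. The rule, gene lists and members were chosen with earlier results of these data known.

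Counts were summed per mouse over the nuclei that met the rule (20893 to 251130 UMIs per mouse, which limits precision for genes of low level) and tested with edgeR 4.0.16 in R 4.3.3 (TMM, filterByExpr, robust quasi-likelihood fit, Benjamini-Hochberg adjustment, called at adjusted p under 0.05), after a test on simulated data. CPM was computed from the deposited counts without further scaling. DESeq2 1.42.0 was an alternative. The study tested nuclei; here the mouse is the replicate. Shares were compared with permutation tests over mice (scipy 1.17.1). Scrublet (scanpy 1.11.5) marked 0.8% of nuclei per 1000 barcodes as doublets, which were kept. Genes named are those of the rule, up to 5 of each list with the highest level, called genes or else the 5 of smallest p, and 25 leading genes; genes named for an exception or a control were chosen after their values were seen. A few genes that this rule names are not reported here.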

Additional observations from a re-analysis of the deposited data

Results flagged for a closer look

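In 11 of 76 sets of mice tested, the highest or lowest mouse stood apart from the others by Dixon's criterion. Chance gives about 1 in 20 for normally distributed values in independent sets. Most sets here were genes named for small p, on the same mice, some with their UMIs in few nuclei. The 11 are therefore not read as an excess over chance. P301S Cgas-/- replicate 5 had the highest share of Cajal-Retzius nuclei of its group, 0.646%. Among the genes lower with loss of cGAS, Slit3 stood apart in Cgas+/+ replicate 4 at 1992 CPM. Zfpm2 stood apart in P301S Cgas-/- replicate 3 at 205 CPM. That was below every P301S Cgas+/+ mouse, but Zfpm2 was chosen for its small p between these 2 groups.

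P301S Cgas+/+ replicate 1, with 4 Cajal-Retzius nuclei, stood apart for Nlk (431 CPM) and 9530059O14Rik (0 CPM). P301S Cgas+/+ replicate 5 was high for Pdzrn3 (167 CPM) and Necab1 (95.6 CPM). P301S Cgas+/- replicate 4 was high for Pdzrn3 (1156 CPM). In P301S Cgas-/- mice, Grin2a stood apart in replicate 1 (230 CPM), Necab1 in replicate 6 (181 CPM) and Nlk in replicate 4 (120 CPM).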

How the results depend on the processing

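No paired analysis was possible because the labels carry no replicate numbers shared between groups; numbers were given in accession order. Alternatives on software version, 10 Reln UMIs, deep nuclei, thinning to 1000 UMIs, the 2 libraries with under 10 nuclei and averages within sex were chosen after seeing the data. The share difference for tau (-0.000385) turned positive without likely doublets (0.0117), thinned to 3000 (0.0722) or 1000 UMIs (0.0037) and by Trp73 only (0.00387). It was also positive in females (0.0949), in software 3.1.0 (0.0691) and without the 2 libraries with under 10 nuclei (0.0562). Averages within software (0.0039) and within sex (0.0101) were positive too. With all Cajal-Retzius nuclei set over only the nuclei with at least 2 Rbfox3 UMIs, it was 0.130. Leaving Cajal-Retzius nuclei over 8000 UMIs out, but keeping all nuclei in the total, gave 0.00427. In no setting did the tau difference reach an exact permutation p under 0.05. For loss of cGAS it was 0.0121 in males and -0.130 in females, whose 3 P301S Cgas-/- mice all lay below the 3 P301S Cgas+/+ mice (exact permutation p = 0.1, the smallest possible). Over all P301S mice it was 0.00803 thinned to 3000 UMIs, 0.0256 in females and 0.0268 in software 3.1.0. Leaving out 1 mouse gave -0.0481 to 0.0591 for tau, -0.134 to -0.0115 for loss of cGAS, -0.154 to -0.0497 for the heterozygous comparison and -0.123 to -0.0670 over all P301S mice.

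The count of genes for loss of cGAS (3) was 16 by DESeq2, 107 without a low-count filter (106 lower, with a median log2 fold change of -0.12 over all genes), 8 with at least 10 nuclei per mouse, 10 at 4000 genes, 9 with only the 2 groups, and 38 (34 lower) with at least 10 Reln UMIs. It was 1 by Trp73 only, without nuclei with markers of other classes or with a software term, and 0 without the sex term or without nuclei over 8000 UMIs; leaving out 1 mouse gave 0 to 4. Without the filter the counts were 2 for tau, 1 for the heterozygous comparison and 9 over all P301S mice, and with at least 10 Reln UMIs 1 for the heterozygous comparison; no mouse left out changed those 3 counts from 0. The cause of these changes was not tested.

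With 4 to 56 nuclei per mouse, depth limited the gene tests to genes of high level, and the intervals of the share differences are wide.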

Other observations

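Choroid plexus markers were unevenly spread over the Cajal-Retzius nuclei of the mice. The 4 markers together lay at 1684 and 1173 CPM in P301S Cgas+/+ replicates 5 and 6 and at 1506 and 1538 CPM in P301S Cgas+/- replicates 1 and 3, and at no more than 185 CPM in the other 23 mice. Htr2c, a serotonin receptor gene of that list, was at log2 fold changes of 3.62 for tau and -2.64 for loss of cGAS (edgeR adjusted p = 0.999 and 0.514).

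Of 830 nuclei with the Reln, Trp73, Lhx1, Lhx5 and Ndnf counts of the rule, 60 were left out by the limit on Gad1 and Gad2 and 27 by that on Mog and Mag alone. The 60 had a median of 12918 UMIs, and 56 of them carried Trp73.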
